A study of Mus musculus with 38 samples.

Results

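Livers of calorie-restricted mice that had missed a meal were compared with livers of calorie-restricted mice taken at 22 h, which sets a meal left out beside a time point of scheduled feeding. The comparison used the 3 libraries labelled as missed meal and the 4 libraries labelled as 22 h of calorie restriction, 7 of the 38 libraries of the series, and all genes of the count table. All mice were female wild-type C57BL/6, and calorie restriction (CR) means that less food is given each day than a mouse would eat freely. The label of the missed-meal livers gives zeitgeber time 18, that is, hours counted from lights on, whereas the label of the other group gives 22 h without saying from which event. Clock time therefore differed between the groups as well as the meal, and the labels do not give the length of the fast after the missed meal. Ages in the labels were 42 to 44 months for the missed-meal livers and 32 to 35 months for the CR 22 h livers, and over the series they rise by sample order from 5 to 44 months, so they may not be true ages. Clock time, age as labelled and the missed meal go with the same groups and cannot be told apart. Values of other groups are set beside those of the 2 groups where they help to read a level: CR livers at 0 h (2 libraries, labelled 8 to 9 months), 6 h (3, labelled 14 to 16 months) and 14 h (3, labelled 23 to 25 months), CR livers that were fed at zeitgeber time 18 (3, labelled 39 to 41 months), and livers of mice fasted for 22 h without prior calorie restriction in their label (3, labelled 36 to 38 months). Nothing in the labels ties each library to its own mouse, and p-values measure only the spread between these libraries, which may be technical.

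When food is withheld, fatty acids released from adipose tissue reach the liver. There they activate the nuclear receptor PPARA, which switches on genes for fatty acid uptake, mitochondrial and peroxisomal oxidation, ketone body synthesis and the proteins that coat lipid droplets. Insulin falls at the same time, and with it the transcription factor SREBP-1c, encoded by Srebf1, that drives fatty acid synthesis. Many liver genes also follow the circadian clock, in which ARNTL and CLOCK switch on their own repressors, the period, cryptochrome and REV-ERB proteins, and output factors such as DBP.

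Library totals lay between 20899828 and 22789535 counts after the missed meal and between 17131271 and 29813551 at CR 22 h. The 3 missed-meal libraries resembled each other, with correlations of 0.596 to 0.749 between their deviations from the mean of all libraries. Libraries 1 and 2 of CR 22 h did so too (0.787). Library 3 of CR 22 h was closest to a library of CR 14 h (0.408, against at most 0.288 within its group), and library 4, the shallowest, was closest to missed meal 2 (0.427, against at most 0.373). Results are therefore also given without these 2 libraries, an alternative chosen after the data were seen.

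Of 13786 genes tested, 868 differed between the missed meal and CR 22 h (6.3% of tested genes), of which 487 were higher after the missed meal (3.53%) and 381 lower (2.76%). Without libraries 3 and 4 of CR 22 h the counts were 462 higher and 398 lower. The calls leaned on single libraries: 296 genes were called without missed meal 1, 288 without missed meal 3 and 474 without CR 22 h 1. A log2 change of at least 1 was seen in 218 of the higher and 183 of the lower genes, and one of at least 2 in 57 and 33. The median change over all tested genes was -0.02. In 774 called genes, 454 higher and 320 lower, no missed-meal library overlapped a CR 22 h library. Over all tested genes this was so for 16.2% (8.75% higher and 7.44% lower).

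**Figure D1:**
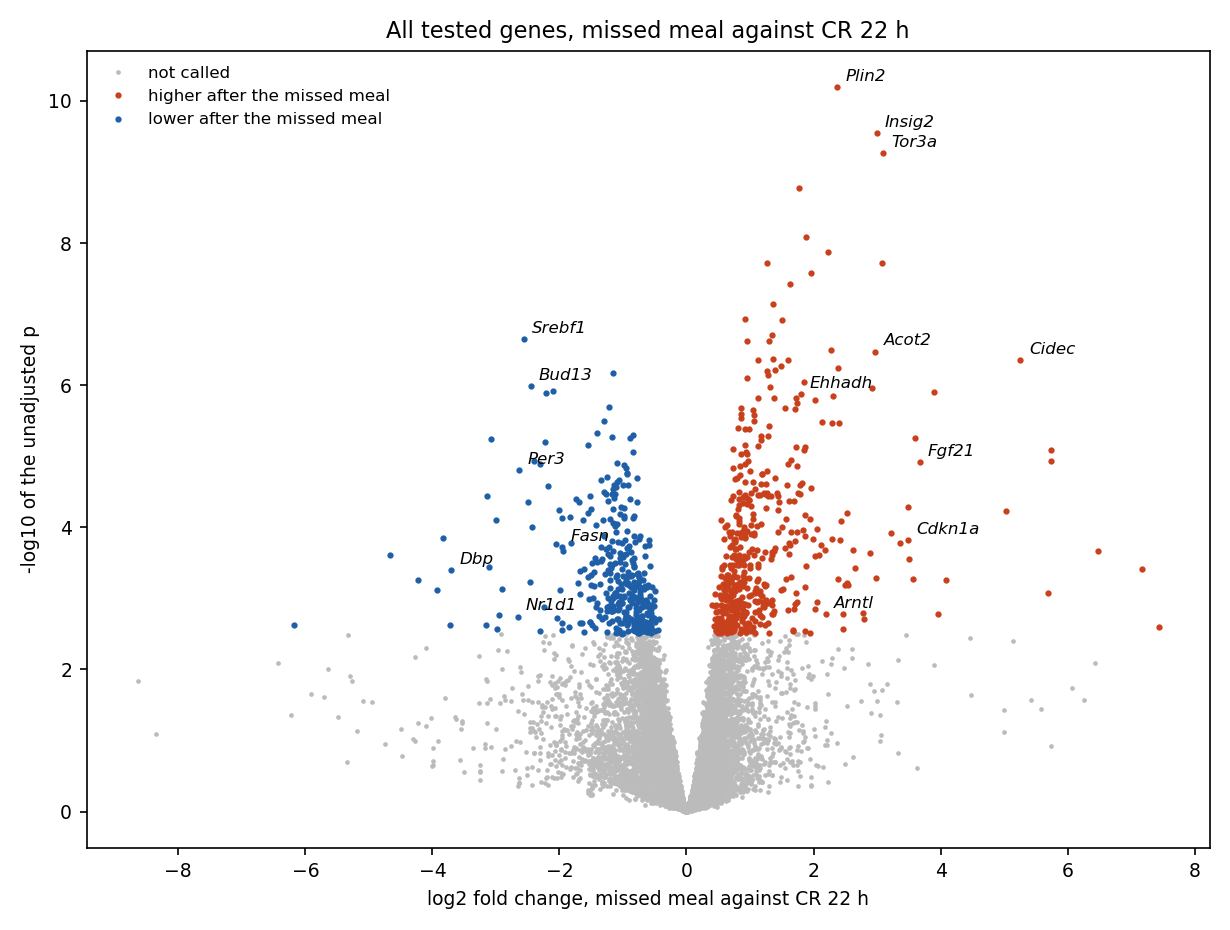
Each point is 1 of 13786 tested genes, with the log2 fold change of the missed meal against CR 22 h on the horizontal axis and the -log10 of the unadjusted p on the vertical axis. Red points are the 487 genes called higher and blue points the 381 called lower, and Plin2 stands highest.

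The called genes were also set against the range of the other CR libraries. Those at 0, 6, 14 and 22 h carry no zeitgeber time in their labels. This range therefore does not separate clock time from the missed meal. In 272 called genes all 3 missed-meal libraries lay outside the range of the other 15 CR libraries (0, 6, 14 and 22 h and fed), 181 above and 91 below it. They were 37.2% of the higher and 23.9% of the lower genes. Over all tested genes 3.52% lay outside that range (2.35% above and 1.17% below), and the CR 22 h libraries are among the 15, so a called gene passes more easily. The count was 157 without missed meal 1, 386 without missed meal 2 and 128 without missed meal 3.

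The gene with the smallest p, Plin2, and the named gene with the largest increase, Cidec, both serve lipid storage. Plin2 encodes perilipin 2, the main coat protein of liver lipid droplets (chromosome 4, 86648386 to 86670060, minus strand). It stood at 1150.4, 1211 and 1662 CPM after the missed meal and at 247, 271, 213 and 302 CPM at CR 22 h. The lowest missed-meal library was thus above every other CR library, the highest of which was a fed liver at 417 CPM. Plin2 was 5.19-fold higher (log2 change 2.38 ± 0.24 SE, edgeR adjusted p = 8.77e-07). Cidec encodes a protein that fuses small droplets into large ones (chromosome 6, 113424634 to 113435760, minus strand). Its levels were 66.4, 12.9 and 50.3 CPM after the missed meal and 1.46, 1.32, 1.19 and 0.441 CPM at CR 22 h, a log2 change of 5.26 ± 0.83 (adjusted p = 0.000268). The groups did not overlap, although the lowest missed-meal library was level with the highest fed CR library, also at 12.9 CPM. Hilpda, whose product inhibits the lipase ATGL on droplets, stood at 7.11, 4.13 and 8.56 CPM against 1.16, 0.863, 1.02 and 2.37 CPM (log2 change 2.30 ± 0.39, adjusted p = 0.000501).

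Of 13 tested genes for droplet coats and fusion, 6 rose and none fell (3.53% of all tested genes were called higher). The list's median log2 change was 1.01 against -0.02 over all genes. The other 3 that rose were Plin3 (1.01 ± 0.22), Plin5 (1.69 ± 0.48), which ties droplets to mitochondria, and Fitm2 (1.55 ± 0.27), needed for droplet formation. Cideb, the family member of the resting liver that loads fat onto lipoproteins, was at 0.05 ± 0.25. Without CR 22 h 3 and 4 the list had 4 higher genes. Of 13 genes for lipolysis and lipophagy, 3 rose: G0s2, another inhibitor of ATGL (2.39 ± 0.62, adjusted p = 0.0182), Mgll, the monoacylglycerol lipase (1.12 ± 0.28, adjusted p = 0.0143), and Lipe, the hormone-sensitive lipase (0.89 ± 0.25, adjusted p = 0.0321). Their calls rested on few libraries: without missed meal 1 the adjusted p was 0.101, 0.123 and 0.275, and without missed meal 3 G0s2 and Lipe were at 0.0634 and 0.119. The same genes were lost without CR 22 h 1 (G0s2 0.0681, Lipe 0.0771), 3 (Mgll 0.0517) or 4 (Lipe 0.0827), and the list had 0 called genes without missed meal 1 and 1 without missed meal 3 or CR 22 h 1. Pnpla2, which encodes ATGL itself, was at 0.38 ± 0.38 (adjusted p = 0.612).

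Among 14 genes of triglyceride synthesis 3 rose and none fell (3.53% of all tested genes were called higher). The list's median change was 0.0568. Gk, the kinase that prepares glycerol for triglyceride synthesis or for glucose, was at 336, 222 and 364 CPM against 122, 129, 93.8 and 147 CPM (log2 change 1.32 ± 0.22, adjusted p = 0.000439). Agpat2, an acyltransferase of the pathway, changed by 1.00 ± 0.20. Its mean was 381 ± 48.7 CPM in fed CR livers and 263 ± 29.7 CPM after the missed meal (SD, n = 3 each, adjusted p = 0.0919). Mogat1, low in all libraries, changed by 2.46 ± 0.75 (adjusted p = 0.0464), and any of 5 single libraries left out ended that call, with adjusted p of 0.264 without missed meal 1, 0.0809 without missed meal 3 and 0.08, 0.0949 and 0.0946 without CR 22 h 1, 2 and 4. Neither Dgat1 (0.08 ± 0.18) nor Dgat2 (-0.58 ± 0.22), the enzymes of the final step, passed the test.

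**Figure D2:**
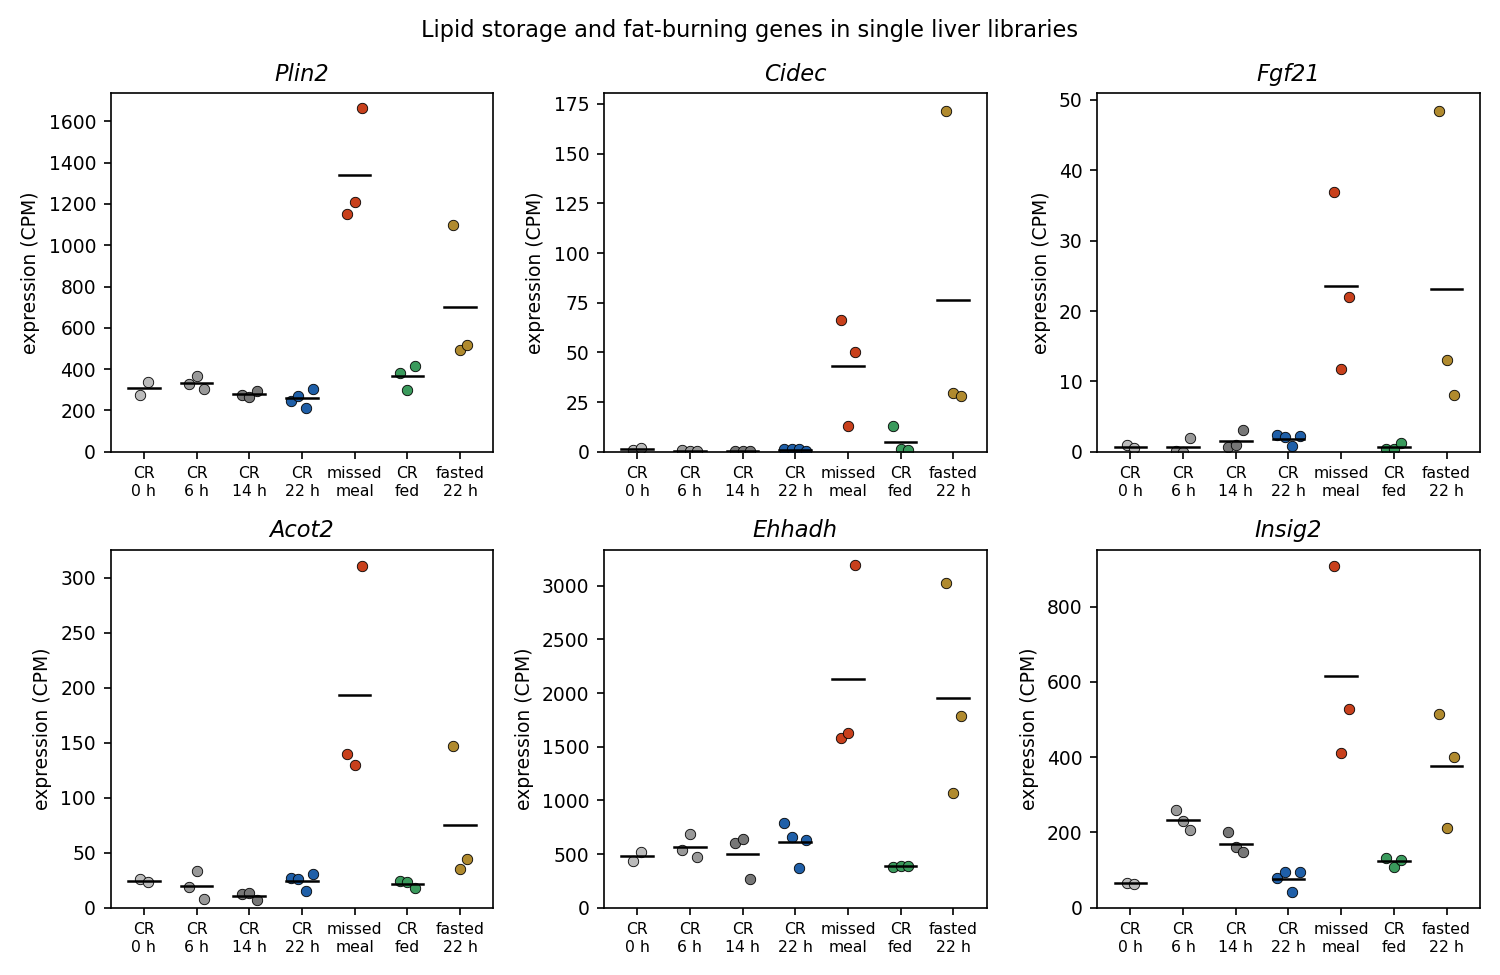
Points are single libraries and bars group means of expression in CPM, for 6 genes that were higher after the missed meal, in CR livers at 0, 6, 14 and 22 h, after the missed meal, in fed CR livers and in livers fasted for 22 h. In each panel the missed-meal libraries lie above all other CR libraries, for Cidec by a margin too small to see (12.9 CPM in both), and for Plin2 from 1150.4 CPM upward against 417 CPM at most.

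Of 30 tested PPARA target genes 18 rose and none fell (3.53% of all tested genes were called higher). The list's median log2 change was 1.46. In all 18 the missed-meal libraries lay above the 15 other CR libraries. This was so for 37.2% of all called higher genes and 2.35% of all tested genes. The count of PPARA targets that rose was 14 without CR 22 h 3 and 4, 11 without missed meal 1 and 12 without missed meal 3. Some genes of this list stand in the lists below as well. Acot2, a mitochondrial thioesterase that releases fatty acids from coenzyme A, stood at 139.9, 129.9 and 311 CPM after the missed meal and at 26.9, 26.6, 14.9 and 30.3 CPM at CR 22 h (log2 change 2.97 ± 0.46, adjusted p = 0.000245). Ehhadh, a peroxisomal enzyme of fatty acid oxidation, stood at 1578, 1631 and 3191 CPM against 793, 657, 370 and 634 CPM (1.80 ± 0.30, adjusted p = 0.000491). Neither gene showed an overlap between the groups. Creb3l3, which encodes a liver transcription factor that acts together with PPARA in fasting, changed by 1.07 ± 0.19 (adjusted p = 0.00082), and Slc22a5, the carnitine importer, by 1.87 ± 0.35.

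Of 18 tested genes of mitochondrial fatty acid oxidation 9 rose and none fell (3.53% of all tested genes were called higher). The list's median was 0.65, and its lowest value was 0.284 (Eci2, not called). Decr1, Eci1 and Hadhb, enzymes of the spiral for unsaturated and long fatty acids, changed by 0.96 ± 0.18, 0.96 ± 0.18 and 1.13 ± 0.23. The carnitine shuttle was represented by Slc25a20 (1.04 ± 0.23) and Cpt2 (1.06 ± 0.26). Cpt1a, its rate-controlling gate, stood at 607, 584 and 554 CPM against 507, 456, 441 and 447 CPM. Its libraries did not overlap, but the change of 0.33 ± 0.27 did not pass the test (adjusted p = 0.533). All 9 called genes lay above the other 15 CR libraries, as did 37.2% of all genes called higher. The count of 9 fell to 5 without CR 22 h 3 and 4 and to 4 without missed meal 1, and it was 13 without CR 22 h 2.

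Of 15 genes for peroxisomal and omega oxidation, 5 rose and none fell (3.53% of all tested genes were called higher). Besides Ehhadh these were Crot, which hands shortened fatty acids to mitochondria (1.72 ± 0.29), the thiolases Acaa1a (0.95 ± 0.22) and Acaa1b (1.34 ± 0.28), and Pex11a, a peroxisome division gene (1.62 ± 0.38). Reads of Acaa1a and Acaa1b, and of the Cyp4a genes, may be shared between these close copies. Cyp4a10 and Cyp4a14, the fatty acid hydroxylases often used as PPARA reporters, changed by 1.58 ± 0.60 and 1.63 ± 0.64 and did not pass the test (adjusted p = 0.115 and 0.129).

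In the list of fatty acid uptake and activation, 6 of 18 genes rose and 1 fell (3.53% and 2.76% of all tested genes did). Acsl1, the main liver acyl-CoA synthetase, was at 1391, 1517 and 1712 CPM against 759, 632, 725 and 812 CPM (1.07 ± 0.22, adjusted p = 0.00308). Slc27a1, a fatty acid transporter better known from muscle and fat, was at 46.9, 23.1 and 27.1 CPM against 5.28, 6.58, 14.6 and 12.96 CPM (1.71 ± 0.30, adjusted p = 0.000628). The medium-chain synthetase Acsm5 fell by 0.85 (SE 0.16, adjusted p = 0.00148). It was at 51.7, 67.4 and 68.6 CPM against 105.7, 93.8, 149.9 and 101.2 CPM, and fed CR livers had a level close to that after the missed meal (63.6 ± 10.5 CPM, SD, n = 3). The list had 3 higher genes without missed meal 3.

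Of 6 tested ketone body genes 5 rose (3.53% of all tested genes were called higher). Slc16a1, the MCT1 transporter of ketone bodies and lactate, was at 93.4, 109.5 and 112.4 CPM against 44.9, 49.2, 17.8 and 42.1 CPM (1.45 ± 0.31, adjusted p = 0.00366). It was lower in livers fasted for 22 h (50.3 ± 20.3 CPM, SD, n = 3, adjusted p = 0.0304 against the missed meal, a comparison in which 13.3% of all genes were called). Of the 6 genes, 1 was called without missed meal 1, 1 without missed meal 3 and 2 without CR 22 h 1.

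Of 16 genes in the list of hepatokines and the leptin axis 1 was called (6.3% of all tested genes were), Fgf21. It encodes the fasting hormone of the liver, a PPARA target that acts on brain and adipose tissue (chromosome 7, 45613886 to 45615490, minus strand). Its levels were 36.9, 11.7 and 22.0 CPM after the missed meal and 2.40, 2.06, 0.792 and 2.21 CPM at CR 22 h. The CR libraries of other times and fed livers reached at most 3.16 CPM, below all 3 missed-meal libraries. The change against CR 22 h was 3.67 ± 0.71 (adjusted p = 0.00192). Livers fasted for 22 h had 48.5, 13.04 and 8.05 CPM, a spread that spans the missed-meal values (difference 0.02 ± 0.69, adjusted p = 0.99).

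The promoter of Fgf21 is shown because the gene had the largest change of the secreted fasting factors. It is given from RefSeq on GRCm38.p6 at chr7:45615441-45615740, minus strand, from 250 bases before to 50 after the gene's start, 5′ to 3′, with an E-box (CACGTG) in capitals.
Fgf21: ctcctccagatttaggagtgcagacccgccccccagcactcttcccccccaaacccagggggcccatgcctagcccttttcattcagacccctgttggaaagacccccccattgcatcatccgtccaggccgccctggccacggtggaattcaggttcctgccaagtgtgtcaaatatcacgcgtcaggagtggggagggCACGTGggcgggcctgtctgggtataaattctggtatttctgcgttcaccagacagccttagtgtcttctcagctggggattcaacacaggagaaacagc
The E-box is the site that CLOCK with ARNTL, and other factors of that family, can bind. It was found in 7.15% of 32851 promoters of 300 bases. The direct repeat of AGGTCA with 1 base N between the copies, a strict form of the PPARA site, was searched on both strands too. It is not in this window and was found in 0.0396% of promoters.

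Adra2a, an adrenergic receptor that inhibits cAMP formation, was at 7.00, 11.1 and 8.56 CPM after the missed meal and at 0.043, 0.164, 0 and 2.04 CPM at CR 22 h (log2 change 4.08 ± 1.02, adjusted p = 0.0186). The call was lost without missed meal 3 (adjusted p = 0.0546) or CR 22 h 1 (0.0599), and the change was 6.33 without CR 22 h 3 and 4. Insig2 encodes a protein of the endoplasmic reticulum that holds back SREBP processing. It stood at 908, 410.2 and 528 CPM against 79.0, 95.0, 40.7 and 94.5 CPM (2.99 ± 0.33, adjusted p = 1.93e-06). Within CR it varied with time, up to 260 CPM in a 6 h library, which was still below all missed-meal libraries. Cdkn1a, the cell cycle inhibitor p21, stood at 122, 56.3 and 84.7 CPM against 6.18, 11.7, 0.594 and 12.9 CPM (3.49 ± 0.81, adjusted p = 0.00818). It was the sole gene of 16 glucocorticoid-responsive genes to be called, beside 6.3% of all tested genes. Fkbp5 and Tsc22d3 of that list were at -0.42 ± 0.52 and 0.30 ± 0.38.

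Other large increases were in genes with varied roles. Npnt and Spon2 encode secreted matrix proteins, with changes of 3.90 ± 0.65 and 3.59 ± 0.66 (adjusted p = 0.000477 and 0.00112). Npnt was at 5.80, 3.12 and 6.57 CPM against 0.472, 0.329, 0.198 and 0.386 CPM, and lay above all other CR libraries. Spon2 was at 13.7, 7.76 and 15.4 CPM after the missed meal and at 0.729, 0.987, 1.12 and 1.21 CPM at CR 22 h, and the other CR libraries reached 24.2 CPM, in a 6 h library. Clstn3, whose short form binds lipid droplets in fat cells, was at 27.7, 15.9 and 29.0 CPM against 2.75, 3.00, 2.44 and 3.31 CPM (3.08 ± 0.41, adjusted p = 3.29e-05). Tor3a, a torsin ATPase, was at 37.2, 29.4 and 36.5 CPM against 3.86, 3.08, 4.62 and 4.47 CPM (3.10 ± 0.35, adjusted p = 2.52e-06). Phospho1, a phosphatase of phosphocholine, changed by 3.49 ± 0.74 (adjusted p = 0.00414). Of the growth hormone axis, 1 of 14 genes was called, beside 6.3% of all tested genes. This was Igfbp2, which carries insulin-like growth factors, at 1.08 ± 0.32 (adjusted p = 0.04). It was no longer called without missed meal 1 (0.114) or 3 (0.215), CR 22 h 1 (0.0543), 3 (0.109) or 4 (0.076).

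**Figure D3:**
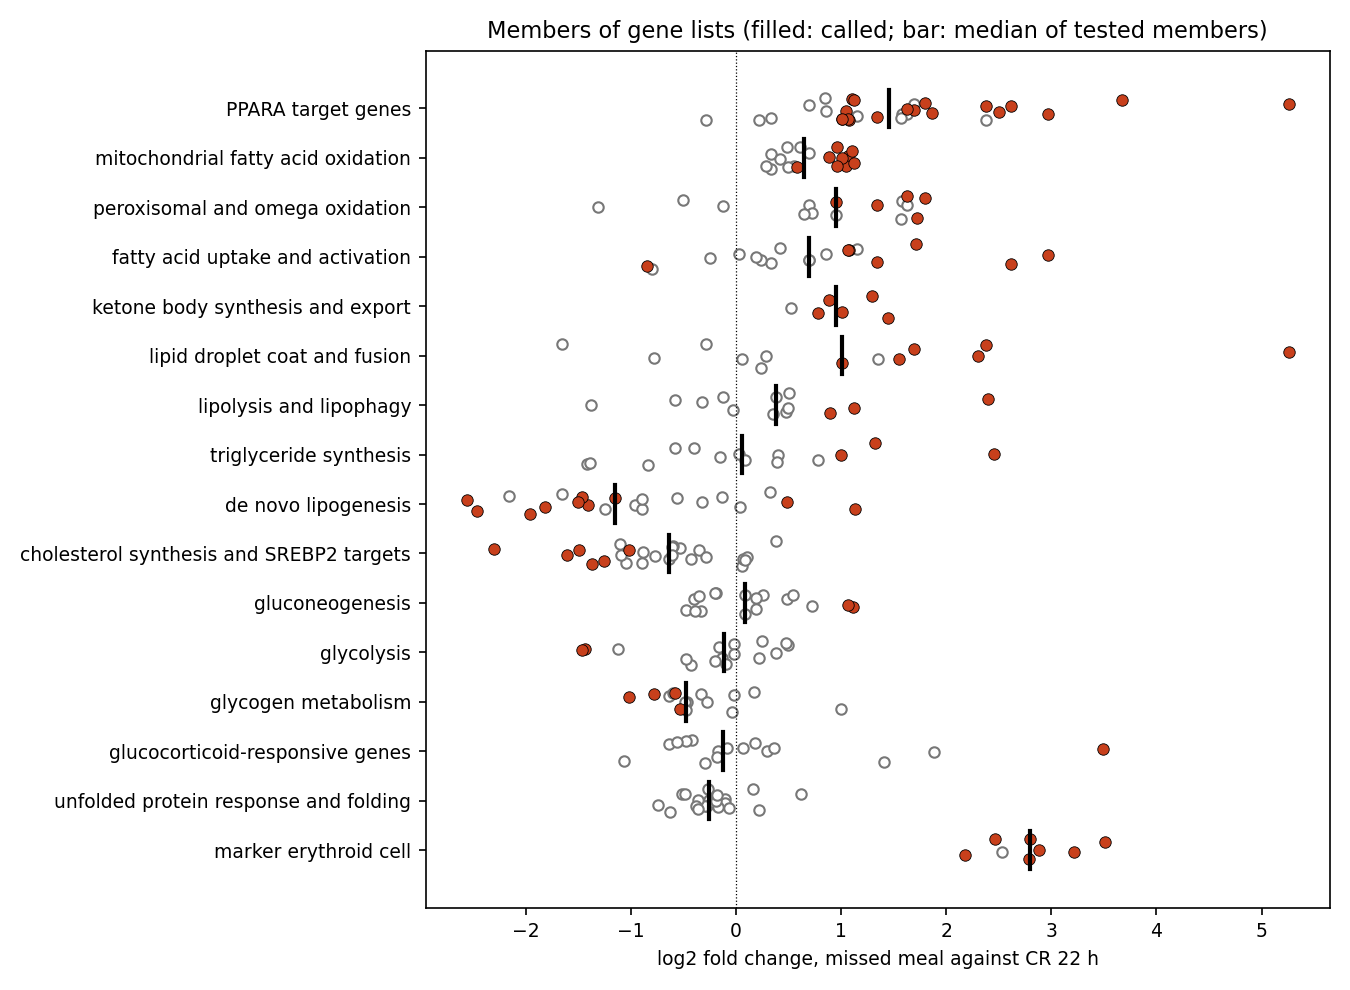
Each point is the log2 fold change of 1 tested gene between the missed meal and CR 22 h, in rows for 16 gene lists, with called genes filled and the list's median as a bar. Called PPARA targets lie to the right of 0, called cholesterol genes to the left, and lipogenic genes on both sides.

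Among genes of fatty acid synthesis more fell than rose. Srebf1 encodes SREBP-1, the transcription factor that drives fatty acid synthesis (chromosome 11, 60199089 to 60222581, minus strand). It stood at 31.7, 47.9 and 27.5 CPM after the missed meal and at 184, 175, 414 and 69.4 CPM at CR 22 h. All missed-meal libraries were below every CR library, including the fed livers at 580 ± 54.8 CPM (SD, n = 3). Against CR 22 h Srebf1 fell by 2.56 on the log2 scale (SE 0.39, adjusted p = 0.000194). Acaca, the acetyl-CoA carboxylase that starts the pathway, was at 31.6, 34.1 and 23.7 CPM against 90.2, 77.2, 105.2 and 43.6 CPM, and fell by 1.41 (SE 0.25, adjusted p = 0.00105). Fasn, the fatty acid synthase, was at 77.3, 93.5 and 41.6 CPM against 344, 241, 442 and 73.4 CPM. Its fall by 1.96 (SE 0.46, adjusted p = 0.0095) came with an overlap, since CR 22 h 4 was as low as the missed-meal livers, and it was no longer called without missed meal 3 (adjusted p = 0.0876).

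The same library was low for the desaturase Scd1 as well. Scd1 was at 345, 1244 and 669.8 CPM after the missed meal and at 5199, 4774, 5877 and 743 CPM at CR 22 h (-2.46 ± 0.64, adjusted p = 0.0193). That call ended without missed meal 1 (adjusted p = 0.137) or 3 (0.103). In all, 8 of 21 genes of fatty acid synthesis fell and 2 rose (2.76% and 3.53% of all tested genes did). The list's median was -1.15. The others that fell were Acly (-1.15 ± 0.32), Acss2 (-1.82 ± 0.42), Pklr (-1.46 ± 0.40) and Mid1ip1 (-1.51 ± 0.40). The 2 that rose were Elovl5, an elongase of polyunsaturated fatty acids (1.13 ± 0.29), and Nr1h3, the oxysterol receptor LXRA (0.49 ± 0.14). Neither of these passed without missed meal 1 (adjusted p = 0.113 and 0.17), missed meal 3 (0.0636 and 0.136) or CR 22 h 4 (0.05 and 0.0856), and Nr1h3 also not without CR 22 h 1 (0.0943). The list had 3 lower genes without missed meal 1 or without missed meal 3, 5 without CR 22 h 1 and 11 without CR 22 h 4. Acss2 was no longer called without missed meal 1 (0.0606).

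In cholesterol synthesis and its SREBP2 targets, 6 of 25 genes fell and none rose (2.76% of all tested genes were called lower). The list's median was -0.642. Fdps, which makes farnesyl diphosphate, was at 64.4, 86.3 and 108 CPM after the missed meal and at 275.6, 353, 232 and 110.9 CPM at CR 22 h, without overlap, and fell by 1.49 (SE 0.37, adjusted p = 0.013). Fed CR livers had more (log2 difference of the missed meal against fed -2.05 ± 0.39, adjusted p = 0.000938). Dhcr7 (-1.37 ± 0.39, adjusted p = 0.0321), Nsdhl (-1.26 ± 0.39, 0.0486) and Lss (-1.02 ± 0.32, 0.0499), enzymes of later steps, also fell. The calls of Nsdhl and Lss lay just under the threshold. Fdps was lost without missed meal 1 (0.107), and Dhcr7 without any single library save CR 22 h 4 (0.0558 to 0.121). The list count was 1 without missed meal 1, 10 without CR 22 h 4, 2 without any other single library and 9 without CR 22 h 3 and 4. Sqle, not called with all libraries (-1.10 ± 0.48, adjusted p = 0.172), passed without CR 22 h 4 (adjusted p = 0.0341).

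**Figure D4:**
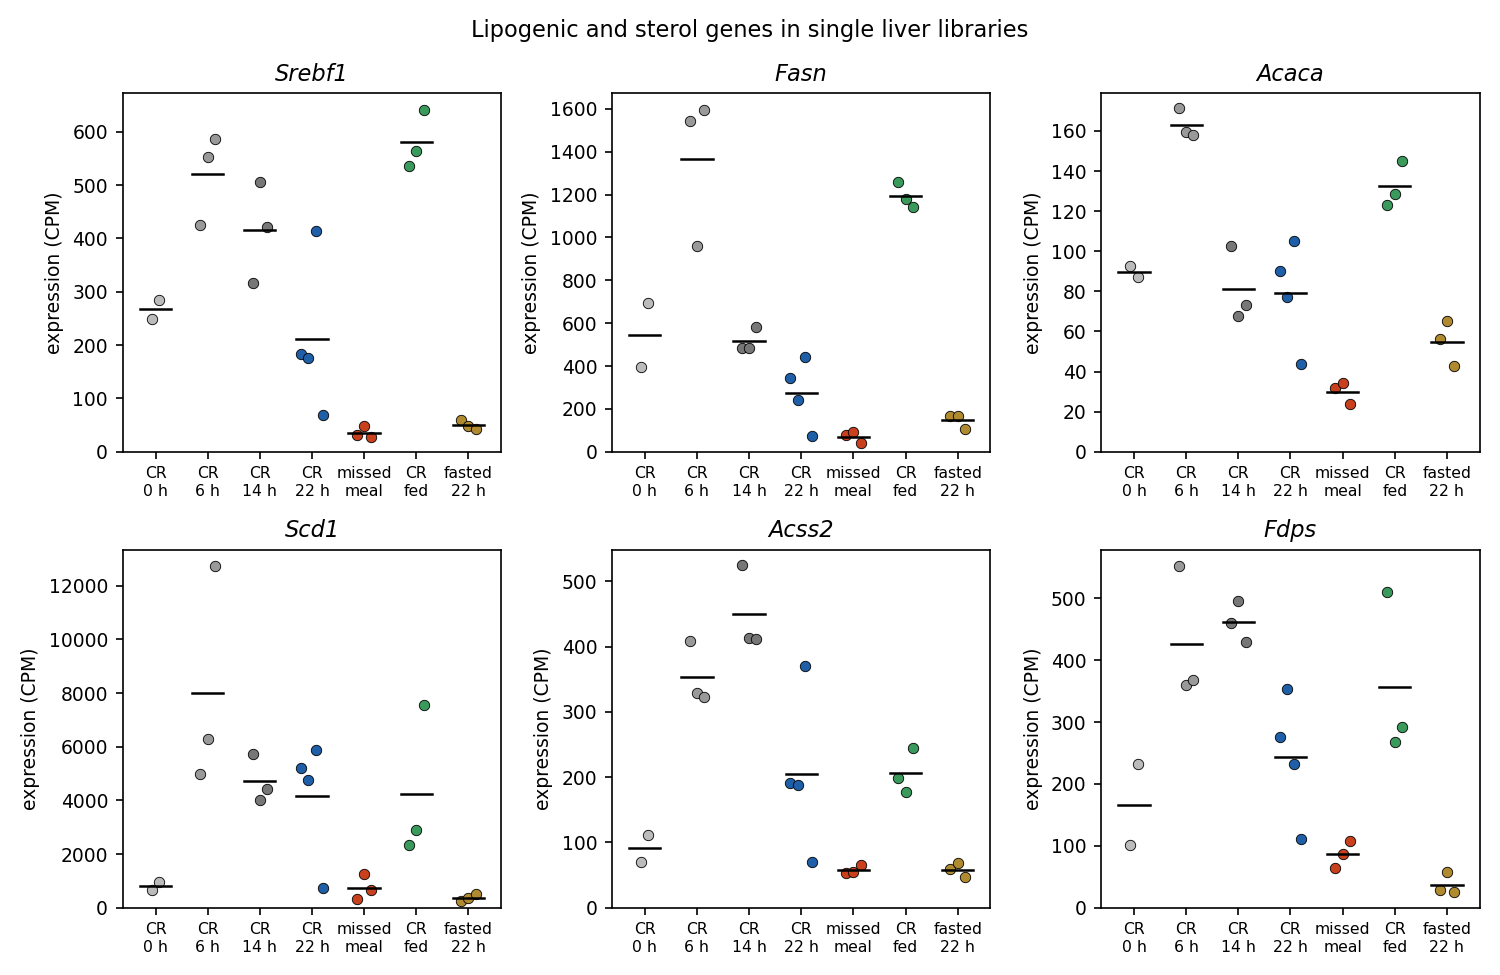
Points are single libraries and bars group means of expression in CPM for 6 genes of fatty acid and sterol synthesis, in the groups of the plot of lipid genes. The missed-meal libraries lie low in each panel, as do the livers fasted for 22 h, and in Fasn and Scd1 they overlap 1 library of CR 22 h, at 73.4 and 743 CPM.

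Of 17 tested genes of glucose production 2 rose and none fell, beside the 3.53% of all genes called higher, and the median was 0.0887. Pck1, the gatekeeping enzyme of gluconeogenesis, was at 5202, 3998 and 4062 CPM after the missed meal and at 8039, 7587, 2264 and 5487 CPM at CR 22 h, with overlapping libraries (-0.40 ± 0.57, adjusted p = 0.744). G6pc, which releases free glucose, was at 703, 611 and 559 CPM against 636, 735, 70.3 and 645 CPM (0.26 ± 0.42, adjusted p = 0.779). The 2 genes that rose were Creb3l3, described above, and Ldha, a lactate dehydrogenase subunit (1.12 ± 0.25, adjusted p = 0.00618, and 0.0753 without missed meal 1). Fed CR livers had 763 ± 552 CPM of Pck1 (SD, n = 3), below the CR 22 h livers (log2 difference -2.94, adjusted p = 0.00163, in a comparison that called 17% of all genes) and below the missed-meal livers too (adjusted p = 0.00904).

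Several other fasting markers likewise did not pass the test. Angptl4, an inhibitor of lipoprotein lipase, was at 359, 309 and 338 CPM against 205, 249.8, 79.1 and 210.1 CPM, without overlap (0.85 ± 0.45, adjusted p = 0.282). Igfbp1, an insulin-repressed binding protein, was at 617, 295 and 475 CPM against 112, 122, 19.3 and 349 CPM (1.62 ± 0.82, adjusted p = 0.258). Pdk4, which shuts off pyruvate oxidation, was at 119, 195 and 339.9 CPM against 32.7, 27.3, 7.07 and 204 CPM (1.69 ± 0.74, adjusted p = 0.174). Library 4 of CR 22 h stood with the missed-meal livers for Pdk4, and without it the change was 3.29 with an adjusted p of 0.00591.

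Of 15 genes of glycogen metabolism, 4 fell and none rose (2.76% of all tested genes were called lower). Phka2 (-1.02 ± 0.24), Phkg2 (-0.54 ± 0.16) and Ugp2 (-0.58 ± 0.17), for subunits of phosphorylase kinase and for the UDP-glucose synthase, were among them. Phka2 was not called without missed meal 3 (adjusted p = 0.0592), and Ugp2 not without any of missed meal 1, 2 or 3 or CR 22 h 1 or 3 (0.0535 to 0.177). The list had 1 lower gene without missed meal 3 and 2 without missed meal 1, missed meal 2 or CR 22 h 1. The glucose transporter Slc2a2 and the pyruvate kinase Pklr were the 2 of 16 glycolytic genes that fell (-1.43 ± 0.35 and -1.46 ± 0.40). The first was not called without missed meal 3 (0.0949), and the second not without missed meal 1 (0.107) or 3 (0.16) or CR 22 h 1 (0.08) or 2 (0.0657).

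Clock genes differed as well, and for these the different clock times of the groups and the missed meal cannot be told apart. Dbp, an output factor driven by CLOCK and ARNTL, had the largest fall of the named genes (chromosome 7, 45705088 to 45710203, plus strand). It was at 7.11, 7.03 and 5.54 CPM after the missed meal and at 58.9, 67.7, 195 and 22.1 CPM at CR 22 h (-3.71 ± 0.94, adjusted p = 0.0152). Nr1d1, the repressor REV-ERB alpha, was at 4.92, 5.33 and 6.47 CPM against 50.6, 42.2, 40.0 and 7.83 CPM (-2.66 ± 0.78, adjusted p = 0.0371). Per3, a period gene, was at 8.43, 7.12 and 5.20 CPM against 34.0, 25.1, 86.4 and 26.0 CPM (-2.64 ± 0.52, adjusted p = 0.0022). None of the 3 showed an overlap.

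The activator genes Arntl and Clock rose. Arntl was at 16.4, 13.4 and 14.6 CPM after the missed meal and at 4.12, 5.51, 0.462 and 2.98 CPM at CR 22 h (2.19 ± 0.64, adjusted p = 0.0353). Clock was at 53.9, 56.6 and 53.3 CPM against 31.7, 20.9, 12.4 and 42.0 CPM (1.03 ± 0.30, adjusted p = 0.038). Bhlhe40, a repressor on E-boxes, fell by 1.22 (SE 0.29, adjusted p = 0.00953). Of the clock lists, 2 of 3 activators rose (3.53% of all tested genes did). In the others 1 of 5 period and cryptochrome genes, 1 of 4 REV-ERB and ROR genes and 2 of 9 output genes fell. Over all tested genes 2.76% were called lower. Per1 and Per2 had no overlap between the groups but did not pass (-1.06 ± 0.62 and -1.27 ± 0.56, adjusted p = 0.336 and 0.177).

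Except for Per3, each of these clock calls was lost when some single libraries were left out. The adjusted p for Dbp was 0.0839 without missed meal 1, 0.0896 without missed meal 3 and 0.053 without CR 22 h 3. Bhlhe40 was at 0.0877 and 0.0762 without missed meal 1 and 3. Of the 7 fits with 1 library left out, Nr1d1 and Clock were called only in that without CR 22 h 4 (0.052 to 0.157 and 0.0548 to 0.113 otherwise), and Arntl only in that without CR 22 h 2 (0.0516 to 0.118 otherwise). Without CR 22 h 3 and 4 together, Arntl and Clock were at 0.181 and 0.051.

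Fed CR livers carry the same zeitgeber time 18 in their label. Values are given here for 3 of the 6 called clock genes, and they do not stand for all 6. Fed livers had 8.49 ± 4.63 CPM of Dbp, 3.43 ± 1.80 CPM of Nr1d1 and 18.3 ± 1.48 CPM of Arntl (SD, n = 3 each). Against the missed meal these did not differ detectably, with log2 differences of the missed meal against fed of -0.38 (adjusted p = 0.844), 0.69 (0.646) and -0.31 (0.822). Per3, Clock and Bhlhe40 in fed livers are shown in the plot of clock genes only. Of the lipid genes, the same comparison gave differences for Plin2 (1.87, adjusted p = 3.19e-05), Fgf21 (5.12, 0.000267), Acot2 (3.15, 0.0002) and Srebf1 (-4.02, 1.76e-06). These were selected and do not stand for all lipid genes. Agpat2, given above, did not pass the same comparison. Both comparisons use the missed-meal libraries, so they are not independent of each other. In the comparison with fed CR livers 12.5% of all genes were called, and fed livers also differ by the meal itself.

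**Figure D5:**
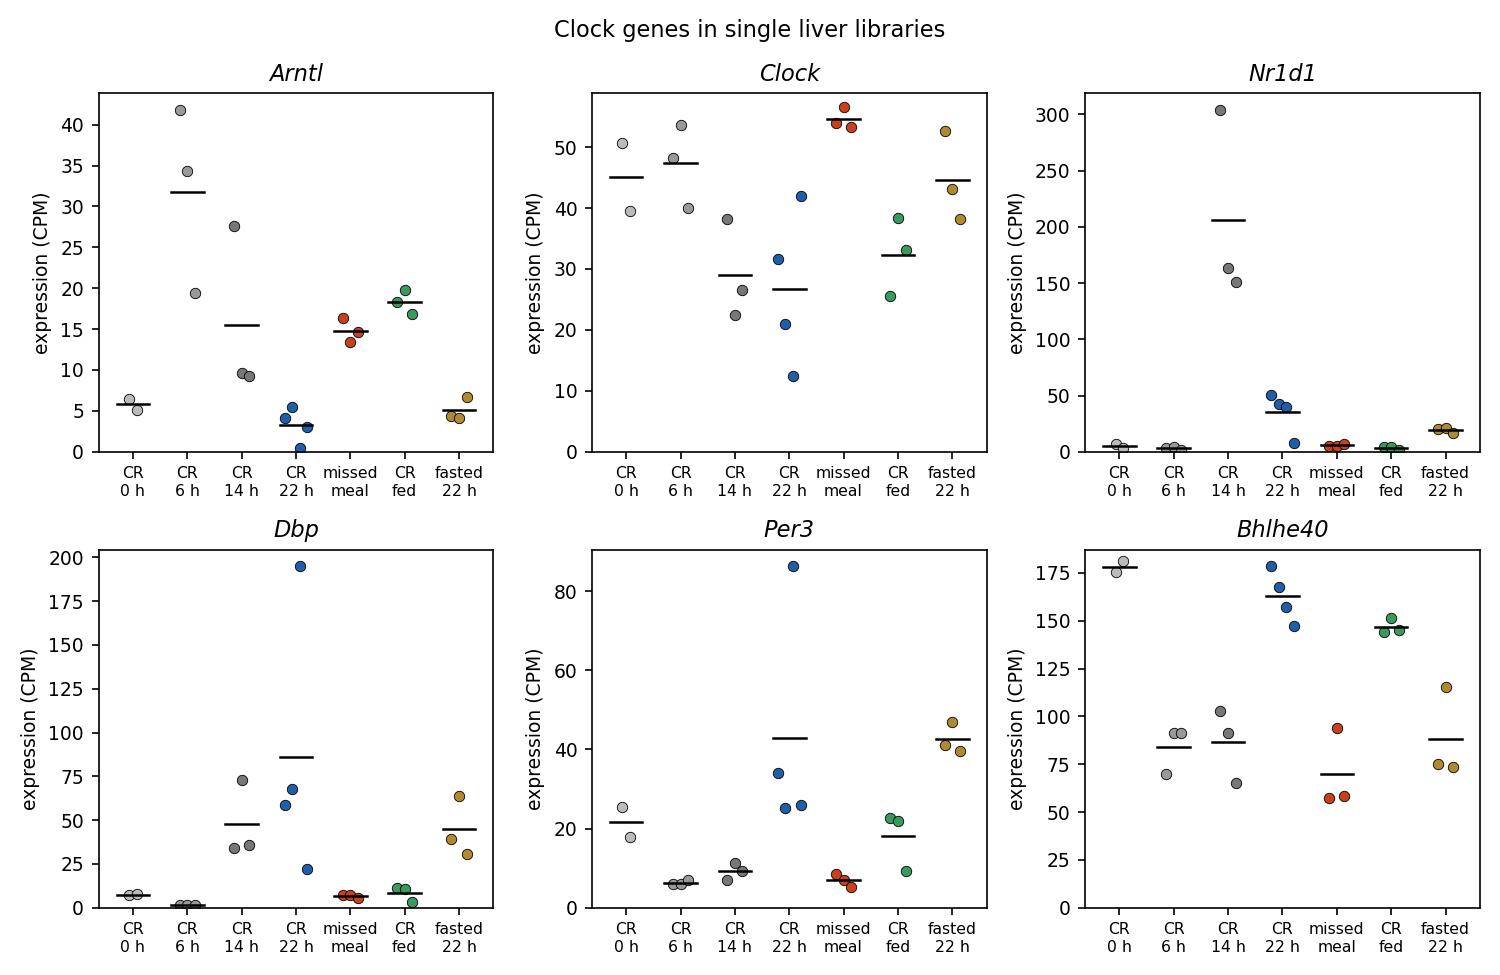
Points are single libraries and bars group means of expression in CPM for 6 clock genes in the groups of the plot of lipid genes. In the panels of Arntl, Nr1d1 and Dbp the missed-meal libraries lie beside the fed CR livers, which carry the same zeitgeber time in their label, and away from most CR 22 h libraries.

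The promoters of Per3 and Arntl are shown because these 2 genes, which moved in opposite directions, carry clock motifs near the start in RefSeq (GRCm38.p6). That of Per3 lies at chr4:151044616-151044915, minus strand, with D-boxes (TTATGTAA) in capitals, the site of DBP and related factors. That of Arntl, the second of its 2 listed starts, lies at chr7:113207261-113207560, plus strand, with the core of a site for REV-ERB and ROR proteins (TAGGTCA) in capitals.
Per3: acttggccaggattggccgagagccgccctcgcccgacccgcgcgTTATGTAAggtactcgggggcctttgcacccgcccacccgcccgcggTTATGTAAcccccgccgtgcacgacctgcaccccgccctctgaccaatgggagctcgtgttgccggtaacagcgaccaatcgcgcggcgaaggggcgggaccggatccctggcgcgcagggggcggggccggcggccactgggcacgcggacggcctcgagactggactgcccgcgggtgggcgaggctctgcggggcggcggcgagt
Arntl: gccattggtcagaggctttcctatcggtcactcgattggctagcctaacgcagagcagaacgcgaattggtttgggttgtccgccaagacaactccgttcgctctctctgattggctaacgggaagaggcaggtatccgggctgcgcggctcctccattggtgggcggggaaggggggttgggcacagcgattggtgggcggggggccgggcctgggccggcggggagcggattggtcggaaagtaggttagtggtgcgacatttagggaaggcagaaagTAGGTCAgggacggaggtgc
Both D-box spellings searched (TTATGTAA and TTACGTAA, both strands) together were found in 1.06% of 32851 promoters of this length, and the core TAGGTCA in 2.61%. The same windows of Dbp, Nr1d1 and Clock hold none of the motifs searched.

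Other genes of liver metabolism changed singly. In bile acid synthesis and transport 2 of 18 rose and 2 fell (3.53% and 2.76% of all tested genes did). Cyp8b1, which sets the share of cholic acid, was at 602, 229 and 325 CPM against 73.2, 83.8, 84.6 and 24.9 CPM (2.53 ± 0.55, adjusted p = 0.00475, and 0.0559 without missed meal 1). Hsd3b7 of the same pathway changed by 1.13 ± 0.28 and was lost without missed meal 1 (0.129) or CR 22 h 1 (0.0543). Abcc2, the export pump of conjugates into bile, was at 186, 306 and 261 CPM against 670.2, 392, 507 and 577 CPM (-1.10 ± 0.22, adjusted p = 0.00276). Cyp2c70, which makes muricholic acids, fell by 1.28 (SE 0.33), without a call when missed meal 1 (0.089) or 3 (0.0831) was left out.

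Of 13 genes in the methionine cycle 3 rose (3.53% of all tested genes were called higher). Of these, Bhmt rested on 1 library: at 8081, 896 and 1079 CPM against 1147, 1358, 1057 and 549 CPM it was called (1.70 ± 0.48, adjusted p = 0.0289), and without missed meal 1 it was at -0.06 (0.964). Nnmt (1.35 ± 0.39) was not called without missed meal 1 (0.195) or 3 (0.091) or CR 22 h 1 (0.0982), 2 (0.0581) or 3 (0.104). Of 14 retinoid genes 1 rose and 1 fell (3.53% and 2.76% of all tested genes did). Rdh16, which makes retinaldehyde, rose (1.19 ± 0.23, adjusted p = 0.00238). Cyp26a1, which breaks down retinoic acid, was at 6.40, 7.53 and 3.65 CPM against 29.6, 28.7, 28.4 and 10.1 CPM (-2.05 ± 0.48, adjusted p = 0.00884, and 0.0805 without missed meal 3).

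Some large decreases were in genes of unclear liver role. Syt1, a calcium sensor of vesicle fusion, was at 1.09, 2.30 and 1.75 CPM against 9.57, 8.51, 11.9 and 8.83 CPM (-2.49 ± 0.52, adjusted p = 0.00369). Cyp2g1, a cytochrome P450 best known from olfactory tissue, fell by 3.14 (SE 0.65, adjusted p = 0.00337). Bud13, a splicing factor gene, was at 3.78, 6.61 and 5.11 CPM against 26.9, 18.8, 7.26 and 60.9 CPM (-2.45 ± 0.41, adjusted p = 0.000439). For Bud13 most CR 22 h libraries stood apart, but library 3, at 7.26 CPM, lay close to missed meal 2 at 6.61 CPM. CR livers at 0, 6 and 14 h, fed CR livers and livers fasted for 22 h did not differ detectably from the missed meal, with log2 differences between -0.05 and 0.21 (adjusted p of 0.783 or more).

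Of the lists for stress and growth, 7 had no called gene in edgeR's test. These were the lists of the unfolded protein response (21 genes tested), heat shock (16), immediate early genes (16), acute phase proteins (18), mTOR and AMPK nutrient sensing (19), metallothioneins and metals (15) and ribosome biogenesis (18). Their medians lay between -0.261 and 0.234. Of their 123 genes, 18 had an unadjusted p under 0.05 (21.1% of all tested genes did), DESeq2 called 5 (Hamp2, Hspb1, Nr4a1, Slc30a10 and Smad7, against 9.49% of all genes) and limma 1 (Hspb1, against 7.14%). Without CR 22 h 3 and 4 edgeR called 2 lower genes of the unfolded protein response, 1 lower each of nutrient sensing and ribosome biogenesis and 1 higher of heat shock. With 1 library left out it called 1 lower gene of the metals list (without CR 22 h 1, 2 or 4), 1 lower immediate early gene (without 2 or 3) and 1 higher heat shock gene (without 2). Other stress lists did hold calls. Among 16 growth arrest and p53 targets 2 rose, Cdkn1a being the highest, and among 13 NRF2 antioxidant targets 1 rose. The latter, Srxn1 (0.76 ± 0.23, adjusted p = 0.0423), was lost without missed meal 1 or 3 or CR 22 h 1, 3 or 4. Of 21 autophagy and lysosome genes, 2 rose, beside the 3.53% of all genes called higher. They were Sqstm1 (0.90 ± 0.19), the cargo receptor p62, and Atg12 (0.68 ± 0.16), the latter lost without missed meal 1 (0.0694) or 3 (0.0634). Of 17 interferon-responsive genes, Rsad2 (1.82 ± 0.37) and Usp18 (1.39 ± 0.33) rose, again beside 3.53% of all genes. Usp18 was lost without missed meal 1 (0.236).

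Markers of liver cell types were checked, because in whole tissue a change in cell number and a change in RNA per cell cannot be told apart. None of the tested markers of hepatocytes (7), Kupffer cells (12), sinusoidal endothelial cells (14), stellate cells (12), cholangiocytes (5), lymphocytes (8), neutrophils (7), pancreas (7) or of the pericentral and periportal zones (10 each) was called by edgeR. Of these 91 genes, 10 had an unadjusted p under 0.05 (21.1% of all genes), DESeq2 called 2 (Col3a1 and Oat, against 9.49%) and limma 0 (against 7.14%). Without CR 22 h 3 and 4 edgeR called 2 Kupffer, 2 stellate, 1 sinusoidal and 1 pericentral marker higher and 1 cholangiocyte marker lower. Without CR 22 h 3 alone it called 1 Kupffer marker higher and 1 cholangiocyte marker lower, and without CR 22 h 4 alone 2 stellate markers higher. Hepatocyte markers summed to 116000 to 130000 CPM after the missed meal and to 91800 to 159000 CPM at CR 22 h. Kupffer markers summed to 218 to 447 and 165 to 392 CPM, and the log2 changes of all 12 were above 0 (median 0.591, lowest 0.051). Pericentral markers summed to 12300 to 13100 and 8750 to 12100 CPM, without overlap, but 1 gene alone reached 10100 CPM. The median log2 change of the 10 was 0.0229, from -0.842 (Lgr5) to 0.857 (Oat). Their part in the other results was not tested. Of 5 tested adipocyte markers 1 was called, Lipe, which liver cells express too. Their median log2 change was -0.783, from -2.3 (Cfd) to 0.891 (Lipe). All 8 adipocyte markers in the count table, tested or not, summed to 19.2 to 43.5 against 15.8 to 26.3 CPM.

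Erythroid markers were the exception, since 7 of 8 rose and none was at 0. Together they made up 10400, 4680 and 14400 CPM after the missed meal and 356, 308, 1620 and 3730 CPM at CR 22 h, without overlap. They summed to 948 to 2340 CPM in fed CR livers and 2780 to 3890 CPM in livers fasted for 22 h. The changes were 2.88 ± 0.69 for Hba-a1, 2.79 ± 0.81 for Hbb-bs, haemoglobin chains whose copies may share reads, 2.18 ± 0.52 for Alas2, which starts haem synthesis in red cells, and 3.51 ± 0.86 for Slc4a1, their anion exchanger. None of the 8 was called without missed meal 3, and 7 were without CR 22 h 3 and 4. The part of red cells or of blood in the liver samples in the other changes was not tested.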

How the data were processed

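Per the labels' protocols, RNA from 30 mg of liver was made into non-directional poly(A) libraries and read as paired 150 bp reads, which the authors aligned with Bowtie (up to 2 mismatches) to protein-coding genes of GRCm38. The deposited expected counts, estimated by the authors with RSEM 1.2.3, were rounded to whole numbers. EBSeq was used by the authors to rescale TPM against a possible batch effect, and the result is deposited as a signal table. The labels name no batch, so none could be a term.

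All 38 libraries entered 1 model with a mean for each of 13 groups in edgeR 4.0.16 (R 4.3.3): filterByExpr, TMM, quasi-likelihood F test, and Benjamini-Hochberg adjustment over all 13786 genes kept of 21954, with a threshold of 0.05. SE is the absolute log2 change divided by the square root of F. CPM values use the normalised library size. Coordinates are from GENCODE vM21, promoters from RefSeq (19 of 26 genes looked up were matched).

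Genes were named by a rule: the 12 largest called changes per direction, where 1 group averaged 5 CPM or more and the libraries did not overlap, up to 3 called members per direction of 39 gene lists, and anchor genes. Unnamed gene models and the Mup, immunoglobulin, haemoglobin and histone families were left out of the first part. Results for some genes are not reported here. Further list members were named after their values were seen. The comparison, members and lists were chosen with earlier results of these data known. Alternatives were DESeq2 1.42.0 (size factors and test), no filter, limma 3.58.1 on the rescaled signal, removal of each library's trend with transcript length (lowess span 0.3), a fit to the 7 libraries, a replicate block and omissions of libraries. Added after seeing the data were the fits without CR 22 h 3 and 4, the same 6 libraries without a block, and omissions in the other groups. The pipeline was tested on simulated data.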

Additional observations from a re-analysis of the deposited data

Results flagged for a closer look

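Of 87 named genes, 8 (9.2%) had 1 library of CR 22 h far from the other 3, judged by the gap to its nearest neighbour against the whole range. Chance flags about 1 in 20 groups. Of these, 4 were in library 3 and 4 in library 4, and 0 in libraries 1 and 2. The 2 libraries are those nearest to a library of another group. Library 3 was highest for Per3 (86.4 CPM, the others 25.1 to 34.0), for Cyp2g1 (10.2 CPM, the others 4.69 to 5.10) and for the antiviral gene Rsad2 (5.55 CPM, the others 1.80 to 1.99), and lowest for G6pc (70.3 CPM, the others 636 to 735). Library 4 was highest for Pdk4 (204 CPM, the others 7.07 to 32.7) and for Adra2a (2.04 CPM, the others 0 to 0.164). It was lowest for Elovl5 (167.9 CPM, the others 285 to 298) and for Cyp26a1 (10.1 CPM, the others 28.4 to 29.6). For Pdk4, Adra2a and Cyp26a1 this library was thus shifted from its group toward the missed-meal livers, and for Elovl5 away from them.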

How the results depend on the processing

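Of 78 called named genes, 37 were called in all 7 fits with 1 missed-meal or CR 22 h library left out, and these fits have fewer samples. All 78 were called with DESeq2 size factors and with the DESeq2 test, 43 in a fit to the 7 libraries alone and 57 without CR 22 h 3 and 4. The count of 868 changed genes (487 higher, 381 lower) was 224 (150 and 74) in the fit to the 7 libraries alone. That fit takes the spread from these libraries only, with few degrees of freedom, and the cause of the lower count was not tested. The count was 1206 with the DESeq2 test (583 lower) and 236 genes were lower with limma on the rescaled signal without a minimum, for which the cause was not tested. Same-numbered libraries of the missed meal and CR 22 h did not deviate together (correlations -0.124, -0.144 and -0.0789). Pairs of unlike number ran from -0.118 to 0.215. Only these groups were checked, and the check cannot exclude a pairing or a shared batch. With the replicate block on the 6 numbered libraries 222 genes were called (129 higher, 93 lower), and 362 (191 and 171) without the block on the same 6. The block gave 3014 genes for the missed meal against fed CR livers, 899 for fed CR against CR 22 h, 1011 against CR 14 h and 3117 against livers fasted for 22 h. With all libraries and no block these were 1719, 2349, 1806 and 1840. The block fits used only the groups compared and the replicate numbers they share. The differences thus mix the block with the smaller set of libraries.

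With single libraries left out, 288 to 970 genes changed, 182 to 546 higher and 77 to 424 lower. The other counts then ran from 775 to 1227 against fed CR livers, 1338 to 2664 for fed CR against CR 22 h, 277 to 1250 against CR 0 h, 1416 to 2784 against CR 6 h, 834 to 1562 against CR 14 h, 709 to 1881 against livers fasted for 22 h, 1650 to 3316 over time in CR and 128 to 386 beyond the CR range. Where CR 0 h was left with 1 library, it was assumed to vary like the other groups. With single libraries left out, the log2 change ran from -0.058 (without missed meal 1) to 2.16 for Bhmt. For G6pc, not called with all libraries, it ran from -0.11 (without CR 22 h 3) to 0.47, and it was at -0.14 without CR 22 h 3 and 4. Longer transcripts had lower log2 changes (Spearman rho -0.204 across 13783 genes, which are not independent), and removing each library's trend with length gave 885 called genes.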

Other observations

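Some genes outside the main groups also differed between the missed meal and CR 22 h. Atf5, a transcription factor of amino acid and mitochondrial stress, was at 615, 431 and 432 CPM after the missed meal and at 229, 283, 84.3 and 72.0 CPM at CR 22 h, without overlap (log2 change 1.56 ± 0.34, adjusted p = 0.00537). It was the 1 gene called of 15 in the list of ATF4 and amino acid response, beside 6.3% of all tested genes. Its adjusted p was 0.0728 without CR 22 h 3 and 4. Foxo3, a transcription factor that insulin signalling keeps out of the nucleus, was at 29.5, 31.9 and 23.1 CPM against 62.9, 49.0, 55.0 and 54.2 CPM (-0.97 ± 0.22, adjusted p = 0.00818). It was the 1 gene called of 16 in the list of insulin and FOXO-linked genes, near the 6.3% of all tested genes. Foxo3 was at 30.0 ± 4.80 CPM in fed CR livers (SD, n = 3), and was not called without missed meal 3 (adjusted p = 0.0773). Fam19a2, which encodes a secreted chemokine-like protein, was at 1.86, 2.43 and 3.79 CPM against 11.8, 9.46, 23.3 and 12.2 CPM (-2.39 ± 0.46, adjusted p = 0.00184). Apoc2, the activator of lipoprotein lipase, was at 421, 248 and 242 CPM against 133, 211, 117 and 166 CPM (0.95 ± 0.23, adjusted p = 0.0114), and 0.179 without missed meal 1.

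In some of the genes described above the livers fasted for 22 h differed from the missed-meal livers, in a comparison in which 13.3% of all genes were called. Plin2 was higher after the missed meal (703 ± 344 CPM in the fasted livers, SD, n = 3, log2 difference 0.93 ± 0.26, adjusted p = 0.0167), and so was Clstn3 (1.26 ± 0.42, adjusted p = 0.0442). Cpt1a was lower after the missed meal than in the fasted livers (1087 ± 402 CPM, difference -0.90 ± 0.30, adjusted p = 0.0405). Clock time, prior diet and the length of the fast differ or are not given between these groups and cannot be told apart.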
